A study of Mus musculus with 9 samples.

Results

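The genes described here are those of cholesterol metabolism in BV2 cells, an immortalized murine microglial line, after exposure to MNPs@SiO2(RITC), magnetic nanoparticles with a silica shell that carries a fluorescent rhodamine dye. A total of 33 genes were chosen by name for 4 roles: 19 cholesterol synthesis enzymes, 5 regulators of the SREBP pathway, 4 genes of sterol transport and esterification, and 5 genes of the LXR pathway. They were selected on their roles with FPKM results from these same libraries already known, so each adjusted p-value below describes a single gene within the fit across all genes and lends no support to the list. FPKM is the number of sequenced fragments scaled to transcript length and to library size. Of the 33 genes, 32 had a row among the 40993 genes of the table, and all 32 averaged 1 FPKM or more across the libraries and entered the test. The expression of the remaining gene, Mvd, was not analysed here, and only its promoter was searched.

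The 9 libraries came from 3 samples each of non-treated control cells, cells given 10 µg/ml MNPs@SiO2(RITC) and cells given 100 µg/ml, the treated cells for 12 h. All groups were the same cell line, and no control particle or vehicle group was used here. The labels number the samples of a group but do not say that they came from separate cultures, so the p-values measure the spread between these samples, which may be technical. FPKM summed to between 473547 and 522812 per library, and the depth, which FPKM does not record, was put at 12150000 to 15070000 fragments per library by the step size of the low values. At that depth the least covered of the 32 genes, Tm7sf2, had an estimated 131 fragments in its lowest library. Of 7 microglia and macrophage markers, 6 were at 1 FPKM or more in every library, whereas Cx3cr1, a defining receptor of microglia in tissue, reached at most 0.0773 FPKM. Of 11 markers of astrocytes, neurons, oligodendrocytes and endothelium, 0 were at 1 FPKM in every library, 6 were listed at 0 throughout, and their sum was 1.86 to 2.01 FPKM in control, 1.08 to 1.51 FPKM at 10 µg/ml and 1.02 to 1.96 FPKM at 100 µg/ml. Replicate 1 of the 100 µg/ml group stood apart: across genes its deviation from the group mean correlated with transcript length at a Spearman rho of -0.60, against 0.49 and 0.43 in the other high-dose libraries and -0.34 to 0.25 in the remaining 6. Deviations from a group mean cancel within the group, so the 0.49 and 0.43 in part mirror the -0.60. The called genes, and several other genes and medians, are also given without high-dose replicate 1.

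Cells make cholesterol from acetyl-CoA by way of mevalonate, squalene and lanosterol. When sterols in the endoplasmic reticulum fall, SCAP carries the SREBP transcription factors to the Golgi, where they are cut and released to switch on the synthesis genes, and the INSIG proteins hold SCAP back when sterols are plentiful. LXR receptors answer the opposite state: activated by oxysterols, they induce transporters that export cholesterol and a ubiquitin ligase that removes receptors for lipoprotein uptake. In microglia and macrophages this balance matters for the handling of engulfed membrane and debris.

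At 100 µg/ml, 3 synthesis enzymes were higher than in control and 3 LXR target genes were lower at an adjusted p of 0.05. The higher genes were Hmgcs1, 1.30-fold up, Idi1, 1.26-fold up, and Cyp51, 1.20-fold up. The lower genes were the cholesterol exporters Abca1, 1.57-fold down, and Abcg1, 1.31-fold down, and the ubiquitin ligase gene Mylip, 1.36-fold down. Without high-dose replicate 1, 5 of these 6 genes were called, all but Idi1, and without control replicate 2, 0 were. Over all genes, 539 were called without high-dose replicate 1 and 31 without control replicate 2, against 236 with all libraries. With all libraries, 0.708% of the 11161 genes tested were called higher at 100 µg/ml than in control and 1.41% lower. At 10 µg/ml, 0 of the 32 genes were called, and 0% of all genes were. Fold changes are on the log2(FPKM + 1) scale throughout, which understates changes in genes of low level. FPKM is a share of each library's RNA, so a lower value does not tell fewer cells with the transcript from less of it in each cell.

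**Figure D1:**
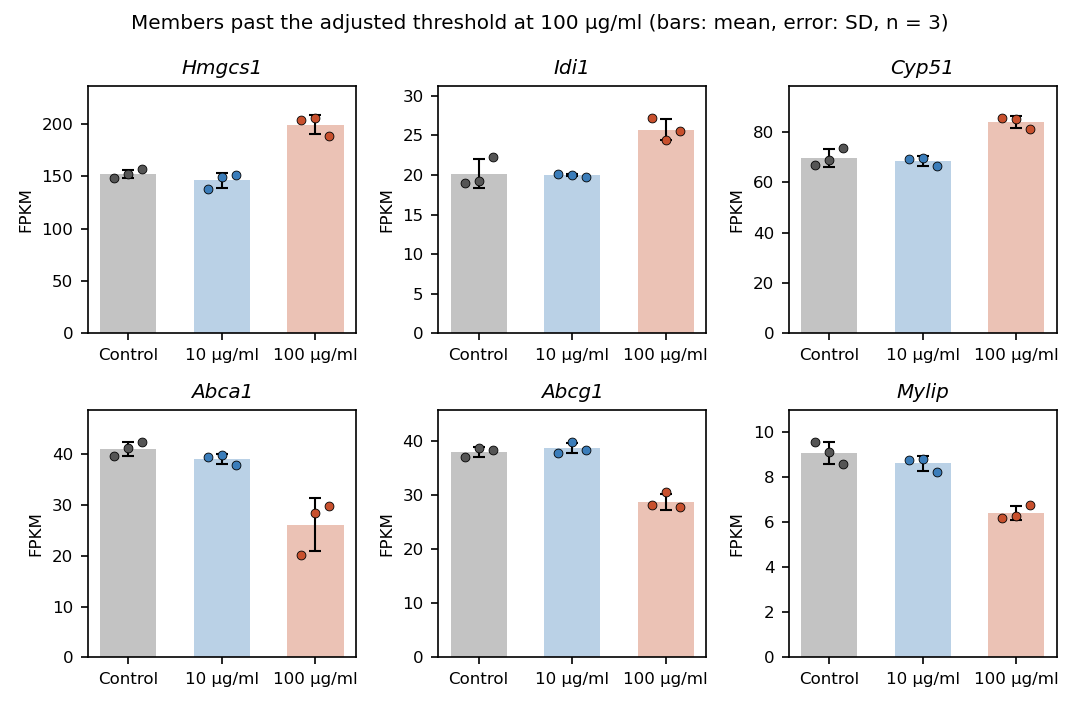
FPKM of the 6 genes called at 100 µg/ml, in control cells and at both doses; points are libraries, bars the mean and error bars the SD of 3 libraries, and the vertical axes start at 0. Hmgcs1, Idi1 and Cyp51 in the top row were higher in every 100 µg/ml library than in any other library, and Abca1, Abcg1 and Mylip in the bottom row were lower in every 100 µg/ml library.

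The enzymes come first. The promoters of the 3 that were higher are shown because these genes passed the threshold. SREBPs and NF-Y are known to act together at promoters of synthesis genes, and whether they did so here was not tested. Each window is the RefSeq sequence of GRCm38.p6 from 250 bases before to 50 bases after the start site, read in the direction of the gene. Capitals mark every match, on either strand, to the core of the sterol regulatory element, TCACNCCAC, or to the NF-Y box, CCAAT, which reads ATTGG on the opposite strand.
Hmgcs1, chr13:119690101-119690400, plus strand: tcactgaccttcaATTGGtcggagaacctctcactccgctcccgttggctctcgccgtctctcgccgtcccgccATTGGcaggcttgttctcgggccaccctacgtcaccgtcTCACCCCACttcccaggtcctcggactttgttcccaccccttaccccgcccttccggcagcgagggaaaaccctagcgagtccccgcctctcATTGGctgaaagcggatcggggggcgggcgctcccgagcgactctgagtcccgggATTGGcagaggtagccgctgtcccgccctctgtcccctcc
Idi1, chr13:8885356-8885655, plus strand: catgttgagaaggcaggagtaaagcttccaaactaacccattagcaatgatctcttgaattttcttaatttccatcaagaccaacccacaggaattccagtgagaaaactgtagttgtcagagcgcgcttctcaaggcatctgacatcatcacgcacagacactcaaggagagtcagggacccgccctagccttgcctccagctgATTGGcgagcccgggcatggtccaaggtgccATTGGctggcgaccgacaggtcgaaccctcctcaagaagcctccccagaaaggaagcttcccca
Cyp51, chr5:4104648-4104947, minus strand: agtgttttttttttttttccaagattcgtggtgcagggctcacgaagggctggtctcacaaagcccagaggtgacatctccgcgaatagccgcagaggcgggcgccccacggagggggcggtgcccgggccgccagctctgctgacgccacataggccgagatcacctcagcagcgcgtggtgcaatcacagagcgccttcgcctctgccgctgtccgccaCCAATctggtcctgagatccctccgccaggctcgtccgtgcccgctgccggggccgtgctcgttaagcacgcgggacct
The Hmgcs1 window held 5 matches, of which 1 was the sterol regulatory element core TCACCCCAC, with its first base at position -137 when the base just before the start site is -1. The Idi1 window held 2 matches and the Cyp51 window 1, all to the NF-Y box. Windows were available for 27 of the 33 genes, and not for Fdps, Fdft1, Sqle, Stard4, Npc1 or Abcg1. Hmgcs1 was the only 1 of these 27 with the core, which 1.44% of all genes with a window held. The NF-Y box occurred in 22 of the 27, or 81.5%, against 41.1% of all genes, and in 15 of the 16 synthesis enzymes with a window. The GC box GGGCGG, bound by Sp1-type factors, occurred in 24 of the 27, or 88.9%, against 38.2% of all genes. The E-box CACGTG occurred in 6 of the 27, or 22.2%, against 8.09%. The shares of all genes cover the 27025 genes with a window, whether or not they are expressed in these cells. They were not matched to the 27 for expression or promoter type, so the differences were not shown to be particular to sterol genes. A match is a description of letters, not of a bound site, and the absence of a match says only that these letters are not in the window.

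Hmgcs1, on chromosome 13 of GRCm38 (119690462 to 119708086, plus strand, as in the table), encodes the synthase that makes HMG-CoA on the way to mevalonate. It measured 148, 152 and 156 FPKM in the control libraries, 138, 149 and 151 FPKM at 10 µg/ml, and 203, 205 and 188 FPKM at 100 µg/ml. The high-dose libraries lay above all others, whereas the low-dose and control ranges overlapped. Against control the log2 fold change at 100 µg/ml was 0.38 ± 0.06 (SE), with a limma adjusted p of 0.0143, and at 10 µg/ml it was -0.06 (95% interval -0.19 to 0.06). Between the doses it was 0.45 ± 0.06 with an adjusted p of 0.0138. Without replicate 1 of the high dose the difference from control was 0.37 with an adjusted p of 0.0177. The call was lost without control replicate 1 (adjusted p 0.0697) or control replicate 2 (0.0795), while the log2 fold change stayed between 0.36 and 0.42 with any 1 library left out. An antisense gene without a value in the table, Gm48342, overlaps Hmgcs1 by 6190 bases, and the strand setting of the alignment is not given in the sources used here.

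Idi1, on chromosome 13 (8885501 to 8892451, plus strand), encodes the isomerase that interconverts the 2 isoprenoid building blocks. Its control libraries held 19.1, 19.2 and 22.3 FPKM, its low-dose libraries 20.1, 20.0 and 19.8 FPKM, and its high-dose libraries 27.2, 24.5 and 25.6 FPKM. The high-dose values did not overlap with the others. The difference from control was 0.34 ± 0.07 at 100 µg/ml, with an adjusted p of 0.0470 in limma. This call was close to the threshold and held in 1 of the 9 fits with a library left out, that without control replicate 3 (adjusted p 0.0382). In the other 8 the adjusted p reached up to 0.179, without control replicate 2, and it was 0.0562 without high-dose replicate 1. Against the low dose the log2 fold change was 0.35 with an adjusted p of 0.0690.

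Cyp51, on chromosome 5 (4081145 to 4104746, minus strand), encodes the demethylase that starts the conversion of lanosterol. The control libraries measured 66.8, 68.6 and 73.7 FPKM, those at 10 µg/ml 69.3, 69.6 and 66.3 FPKM, and those at 100 µg/ml 85.3, 85.1 and 81.0 FPKM. All 3 high-dose libraries exceeded the other 6. On the log2 scale the difference was 0.26 ± 0.05 against control (limma adjusted p 0.0414) and 0.29 ± 0.05 against the low dose (adjusted p 0.0492). The call against control held in 1 of 9 fits with a library left out, that without high-dose replicate 1 (0.0423), and the adjusted p rose to 0.164 without control replicate 2. The log2 fold change stayed between 0.23 and 0.30 in those fits. The gene overlaps Akap9 on the opposite strand by 166 bases.

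Of the 18 enzymes tested, 15 had a log2 fold change above 0 at 100 µg/ml, with a median of 0.10, where the median over all genes was 0.00. Without high-dose replicate 1, 11 of the 18 were above 0, with a median of 0.11. Their 3 high-dose libraries did not overlap with the 3 control libraries, on the higher side, in 7 of the 18, and 12.5% of all genes were separated in that way. Besides the 3 genes called, the separated enzymes were Fdft1, squalene synthase, at 0.29 (adjusted p 0.107), Msmo1, a methyl sterol oxidase, at 0.28 (0.0695), Sqle, which epoxidizes squalene, at 0.19 (0.0885), and Hsd17b7, a sterol ketoreductase, at 0.16 (0.196). None of these 4 passed the adjusted threshold in limma, although each had an unadjusted p under 0.05. Fdft1 measured 29.0 FPKM in replicate 1 of the high dose, 23.3 and 23.1 FPKM in the other high-dose libraries and 20.0 to 20.7 FPKM in control, and without replicate 1 its log2 fold change was 0.19 (adjusted p 0.0502). Its gene overlaps the far more abundant Ctsb (1166 FPKM on average) by 771 bases on the opposite strand.

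The remaining 11 enzymes did not pass the threshold, and their values were mixed. The lowest was Tm7sf2, a sterol reductase, which also had the lowest level of the 32 genes (4.25 ± 0.72 FPKM in control, SD, n = 3): its log2 fold change was -0.15 at 100 µg/ml (95% interval -0.41 to 0.10) and its gene shares 532 bases on the same strand with Vps51. Lbr, a protein of the nuclear envelope with the same reductase activity, had 0.09 (-0.02 to 0.20). In the mevalonate part Mvk had 0.00 (-0.25 to 0.25) and Pmvk 0.09 (-0.15 to 0.33), which without high-dose replicate 1 were -0.09 and -0.02, and Acat2, which joins acetyl-CoA units, 0.00 (-0.11 to 0.12). Fdps, the farnesyl diphosphate synthase, had 0.05 (-0.14 to 0.25), or -0.05 without high-dose replicate 1, and carried the highest level of an enzyme, 169 ± 3.27 FPKM in control, and a gene without a value in the table, Gm43738, covers 7508 of its bases on the same strand. Among the later steps Lss, which closes the sterol rings, had 0.13 (-0.17 to 0.42), or 0.23 without that library, Dhcr7 0.09 (-0.08 to 0.26), Nsdhl 0.10 (-0.03 to 0.24), Ebp 0.05 (-0.20 to 0.29) and Sc5d -0.07 (-0.18 to 0.04). The intervals of Lss, Pmvk, Ebp and Dhcr7 reached the log2 fold change of Cyp51, and those of the other 7 genes ended short of it.

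**Figure D2:**
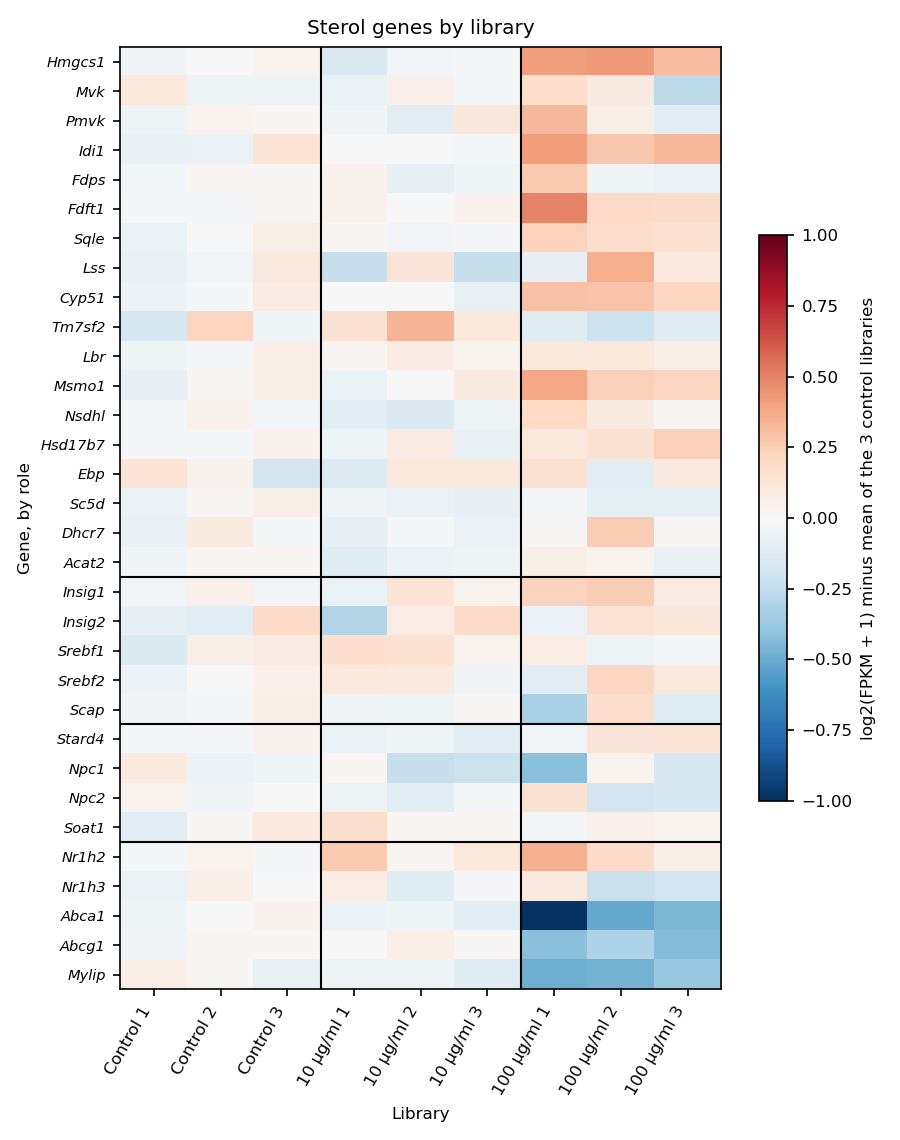
Log2(FPKM + 1) minus the mean of the 3 control libraries for the 32 genes (rows, in blocks by role: synthesis enzymes, SREBP regulators, sterol transport and esterification genes, LXR genes) in the 9 libraries (columns). Hmgcs1, Idi1, Cyp51 and several other enzymes are red in all 3 libraries at 100 µg/ml, Abca1, Abcg1 and Mylip are blue in the same 3, and the 10 µg/ml columns show no such block.

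The SREBP regulators did not pass the threshold in any comparison. At the high and the low dose their median log2 fold change was 0.07 and 0.03, and 4 of the 5 were above 0 at the high dose. With 1 library left out these medians ran from 0.03 to 0.13 and from -0.01 to 0.09, and the high-dose median was 0.13 without high-dose replicate 1. Insig1, itself a known SREBP target whose product retains SCAP, measured 113, 119 and 113 FPKM in control, 109.7, 126 and 118 FPKM at 10 µg/ml, and 135, 136 and 121 FPKM at 100 µg/ml. Its high-dose libraries lay above control but overlapped with the low dose, and the log2 fold change from control was 0.19 ± 0.07 with an adjusted p of 0.181 in limma. It was the only regulator whose control and high-dose groups did not overlap.

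Srebf2, the SREBP gene most closely tied to cholesterol synthesis, measured 85.9, 89.7 and 92.4 FPKM in control, 96.1, 95.6 and 87.3 FPKM at 10 µg/ml, and 82.8, 103 and 96.1 FPKM at 100 µg/ml. The high-dose libraries reached both below and above control, with a log2 fold change of 0.07 (95% interval -0.12 to 0.25), or 0.15 without high-dose replicate 1. Srebf1, which serves fatty acid synthesis as well and is an LXR target, held 77.0, 88.5 and 90.1 FPKM in control, 95.8, 94.7 and 87.2 FPKM at the low dose and 89.7, 81.8 and 84.2 FPKM at the high dose. It did not separate the groups, at 0.00 (-0.16 to 0.17) against control. Scap measured 30.4, 30.8 and 32.6 FPKM in control, 30.5, 30.4 and 31.4 FPKM at 10 µg/ml, and 24.7, 35.4 and 28.5 FPKM at 100 µg/ml. Its high-dose libraries spread on both sides of all the others (log2 fold change -0.09, -0.34 to 0.15, or 0.02 without high-dose replicate 1), and Insig2 had 0.07 (-0.23 to 0.37). The transcript level of an SREBP does not measure its cleavage, which was not assayed in these libraries.

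None of the 4 genes of sterol transport and esterification passed the threshold in any comparison. Against control their median log2 fold change was -0.02 at the high dose, a sign kept under 13 of 18 alternatives and turned by quantile normalization (0.013), and -0.07 at the low dose. Npc1, which moves cholesterol out of lysosomes, measured 69.0, 61.5 and 62.5 FPKM in control, 65.2, 54.5 and 55.3 FPKM at 10 µg/ml, and 47.7, 65.9 and 57.5 FPKM at 100 µg/ml. The 3 groups overlapped, and the log2 fold change at the high dose was -0.18 (-0.45 to 0.09), or -0.06 without high-dose replicate 1. Stard4, a cytosolic sterol carrier, measured 61.1, 61.3 and 63.9 FPKM in control, 59.2, 60.4 and 57.7 FPKM at 10 µg/ml, and 60.8, 68.0 and 68.2 FPKM at 100 µg/ml. Its low-dose libraries lay below the other 2 groups, but the log2 fold change from control was only -0.07 (-0.20 to 0.06) there and 0.08 (-0.05 to 0.21) at the high dose. Between the doses its libraries did not overlap, with a log2 fold change of 0.15 and a limma adjusted p of 0.280. Npc2, the partner of Npc1 inside the lysosome, had -0.07 (-0.26 to 0.13), or -0.18 without high-dose replicate 1 (adjusted p 0.0597). Soat1, which esterifies cholesterol for storage, had the highest level of the 32 genes (369 ± 27.2 FPKM in control, SD, n = 3) and a log2 fold change of 0.03 (-0.13 to 0.18).

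The LXR genes divided into receptors and targets. The median of the 5 was -0.39 at 100 µg/ml against -0.02 at 10 µg/ml. The high-dose median is the value of a single gene, Abcg1, so it follows the called targets and not the receptors. Further LXR targets are described with the SREBP regulators and the neighbouring genes. The promoters of Abca1 and Mylip, the called targets with a window, are shown with capitals at matches to the LXR direct repeat DR4, a pair of receptor half-sites parted by a short spacer, and to the NF-Y box.
Abca1, chr4:53159846-53160145, minus strand: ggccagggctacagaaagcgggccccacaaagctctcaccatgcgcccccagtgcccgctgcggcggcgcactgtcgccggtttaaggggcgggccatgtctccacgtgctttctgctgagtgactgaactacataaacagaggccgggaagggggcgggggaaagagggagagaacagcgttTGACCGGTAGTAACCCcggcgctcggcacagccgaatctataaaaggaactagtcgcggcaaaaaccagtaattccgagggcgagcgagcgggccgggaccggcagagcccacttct
Mylip, chr13:45389492-45389791, plus strand: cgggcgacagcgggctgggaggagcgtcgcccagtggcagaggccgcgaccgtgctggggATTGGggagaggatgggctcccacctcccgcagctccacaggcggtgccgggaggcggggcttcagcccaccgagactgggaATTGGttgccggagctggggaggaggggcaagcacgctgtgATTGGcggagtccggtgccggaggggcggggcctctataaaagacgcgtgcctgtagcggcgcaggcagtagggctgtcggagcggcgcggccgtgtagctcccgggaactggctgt
The repeat was first searched as AGGTNANNNNNGGTCA, which 0 of the 27 genes and 0.0962% of all genes held. After the windows had been seen, the first base was set free, NGGTNANNNNNGGTCA, and this form matched Abca1, with its first base at -67, and Srebf1. Of all genes 0.226% held it. The form was chosen with these windows in view, so that share does not measure how rare the matches are. The Mylip window held 3 NF-Y boxes, and of the 4 LXR genes with a window it was the only 1 with that motif.

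Abca1, on chromosome 4 (53030787 to 53159895, minus strand), encodes the transporter that loads cholesterol onto apolipoproteins. It measured 39.7, 41.3 and 42.4 FPKM in control, 39.5, 39.8 and 38.0 FPKM at 10 µg/ml, and 20.3, 28.5 and 29.8 FPKM at 100 µg/ml. All high-dose libraries were lower than all others, and replicate 1 was the lowest of them. The log2 fold change from control was -0.65 ± 0.12 with a limma adjusted p of 0.0345. Without high-dose replicate 1 it was -0.48, with an adjusted p of 0.00552, so the size of the difference rests in part on that library. Abca1 also has a long transcript, of 10260 bases. With each library corrected for GC content and transcript length the log2 fold change was -0.56 (adjusted p 7.92e-04). That correction was chosen after the data were seen and called 824 genes over all, against 236 as reported. The Abca1 call was lost with a replicate block (0.0610), with no filter (0.0728) and with only the 6 libraries compared (0.130). The call held without high-dose replicate 1 or 3 and was lost in the other 7 fits with a library left out, with an adjusted p of up to 0.135 without control replicate 2. Against the low dose the log2 fold change was -0.58 with an adjusted p of 0.0797, and -0.41 with 0.0157 without high-dose replicate 1.

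Abcg1, on chromosome 17 (31057698 to 31115777, plus strand), encodes the transporter that passes cholesterol to lipoprotein particles. Its control libraries measured 37.0, 38.6 and 38.4 FPKM, its low-dose libraries 37.9, 39.8 and 38.4 FPKM, and its high-dose libraries 28.1, 30.5 and 27.8 FPKM. The high-dose values formed a group of their own below the rest. The log2 fold change was -0.39 ± 0.05 against control (limma adjusted p 0.0106) and -0.41 ± 0.05 against the low dose (0.0138). Against control it was -0.37 (0.0135) without high-dose replicate 1. The call was lost in 1 of 9 fits with a library left out, that without control replicate 2 (0.0649).

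Mylip, on chromosome 13 (45389742 to 45412019, plus strand), encodes the ubiquitin ligase that marks lipoprotein receptors for degradation. It measured 9.56, 9.14 and 8.58 FPKM in control, 8.78, 8.81 and 8.25 FPKM at 10 µg/ml, and 6.20, 6.28 and 6.76 FPKM at 100 µg/ml. The high-dose libraries again lay below all others. The log2 fold change was -0.44 ± 0.07 against control (limma adjusted p 0.0159) and -0.38 ± 0.07 against the low dose (0.0462). Against control it was -0.42 (0.0210) without high-dose replicate 1, and the call was lost without control replicate 1 (0.0746) or control replicate 2 (0.0857).

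The receptors themselves did not pass the threshold. Nr1h2, the widely expressed LXR beta, measured 22.6, 23.3 and 22.5 FPKM in control, 27.5, 23.3 and 24.6 FPKM at 10 µg/ml, and 29.4, 26.2 and 23.9 FPKM at 100 µg/ml. The high-dose libraries were above control by a log2 fold change of 0.20 ± 0.08 (adjusted p 0.235), the only LXR gene with a value above 0. Nr1h3, the LXR alpha of macrophages and liver, measured 11.3, 12.5 and 11.9 FPKM in control, 12.5, 10.9 and 11.8 FPKM at the low dose, and 12.8, 10.1 and 10.3 FPKM at the high dose. Its groups overlapped, with a log2 fold change of -0.11 (-0.32 to 0.11), or -0.21 without high-dose replicate 1.

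**Figure D3:**
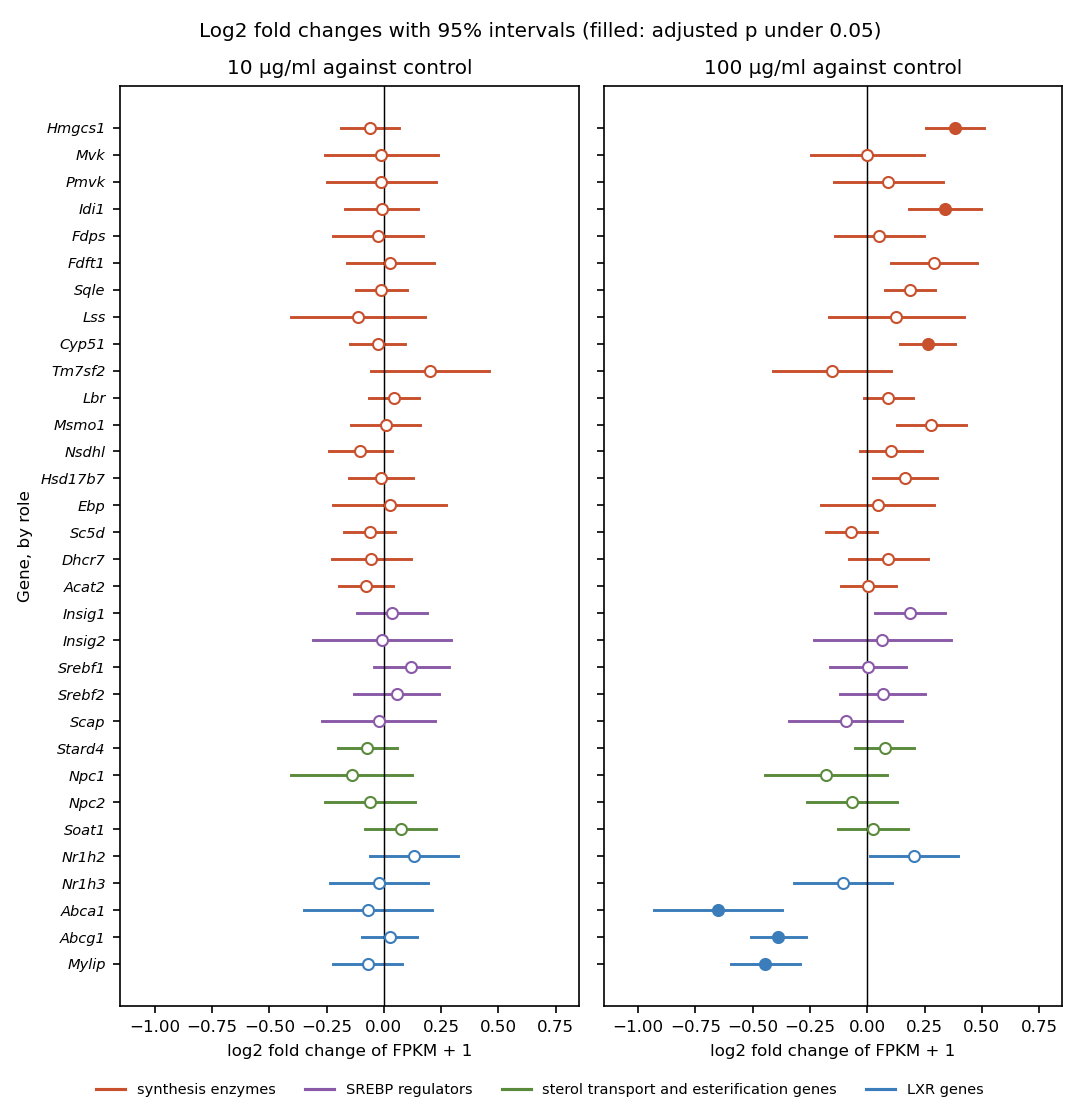
Fitted log2 fold changes of FPKM + 1 against control with 95% intervals for the 32 genes, at 10 µg/ml (left) and 100 µg/ml (right), coloured by role; filled points have an adjusted p under 0.05. No point is filled at 10 µg/ml, and 6 are filled at 100 µg/ml, 3 enzymes to the right of 0 and 3 LXR targets to the left.

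Set side by side by library, the roles differed most at 100 µg/ml. The median over the 18 enzymes was 0.19, 0.13 and 0.08 log2 units above the control mean in the 3 high-dose libraries, against -0.05 to 0.03 in control and -0.04 to 0.00 at the low dose. The median over the 5 LXR genes was -0.42, -0.31 and -0.38 in the high-dose libraries, against -0.04 to 0.02 in control and -0.04 to -0.01 at 10 µg/ml. In each high-dose library this median was the value of Abcg1 or Mylip, and not of a receptor. Srebf1, an LXR target counted here with the SREBP regulators, had a fitted log2 fold change of 0.00. For the SREBP regulators the high-dose libraries spread from -0.06 to 0.17, and for the transport and esterification genes from -0.06 to 0.04, with both ranges overlapping those of control. Over all genes tested the same medians lay between 0.00 and 0.01. The roles are described here and were not tested against each other.

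**Figure D4:**
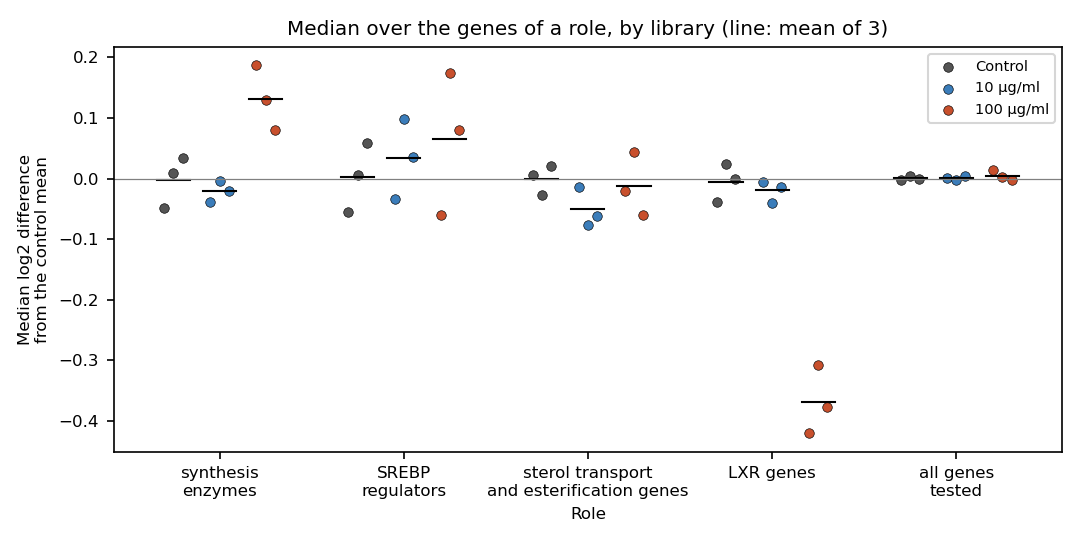
Median log2 difference from the control mean over the genes of each role, and over all 11161 genes tested, with a point per library and a line at the mean of 3 libraries. In all 3 libraries at 100 µg/ml the median of the enzymes lies above the control libraries. That of the LXR genes, which is the value of a called target there, lies below them. The other roles overlap with control and all genes stay close to 0.

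At 10 µg/ml the 32 genes stayed close to control. Of the 32, 0 passed the adjusted threshold and 0 had an unadjusted p under 0.05 in limma. Of all genes 3.28% had an unadjusted p under 0.05, a share so small that 0 of 32 does not set these genes apart. The log2 fold changes ran from -0.14 in Npc1 to 0.20 in Tm7sf2, with 95% intervals of 0.11 to 0.30 on either side. The groups did not overlap in 3 genes on the lower side, Nsdhl, Acat2 and Stard4, and in 0 on the higher side, where 4.61% of all genes were lower and 6.14% higher in that way. For all 6 genes called at 100 µg/ml the interval at 10 µg/ml ended short of the fitted high-dose value. Hmgcs1 had -0.19 to 0.06, Cyp51 -0.15 to 0.09, Idi1 -0.17 to 0.15, Abcg1 -0.09 to 0.14, Mylip -0.22 to 0.08 and Abca1 -0.35 to 0.21. These 6 were picked for their high-dose values, which may therefore be overstated. Compared directly, the doses did not differ at the threshold for Idi1 (limma adjusted p 0.0690) or Abca1 (0.0797).

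The 2 doses were compared directly, using the same high-dose libraries. Of the 32 genes, 2 were higher at 100 than at 10 µg/ml, Hmgcs1 and Cyp51, and 2 were lower, Abcg1 and Mylip, whereas 0.215% of all genes were called higher and 0.636% lower. Cyp51 and Mylip passed in 0 of the 9 fits with a library left out, Hmgcs1 in 6 and Abcg1 in 5. Without high-dose replicate 1 the calls were 3, Hmgcs1, Abca1 and Abcg1, and without low-dose replicate 1 or 2 they were 0. The 3 libraries of each dose did not overlap in 10 genes on the higher side and 4 on the lower side, and 9.37% and 9.99% of all genes did so. Of these, Tm7sf2 was lower at the high dose, with 3.79, 3.48 and 3.80 FPKM against 4.80, 5.61 and 4.62 FPKM, a log2 fold change of -0.36 with an adjusted p of 0.208. The median log2 fold changes between the doses were 0.16 for the enzymes, 0.01 for the SREBP regulators, -0.02 for transport and esterification, and -0.38 for the LXR genes. Against control, on the lower side, 3 of the 32 genes had groups that did not overlap at 100 µg/ml, the same LXR targets, beside 11.4% of all genes.

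**Figure D5:**
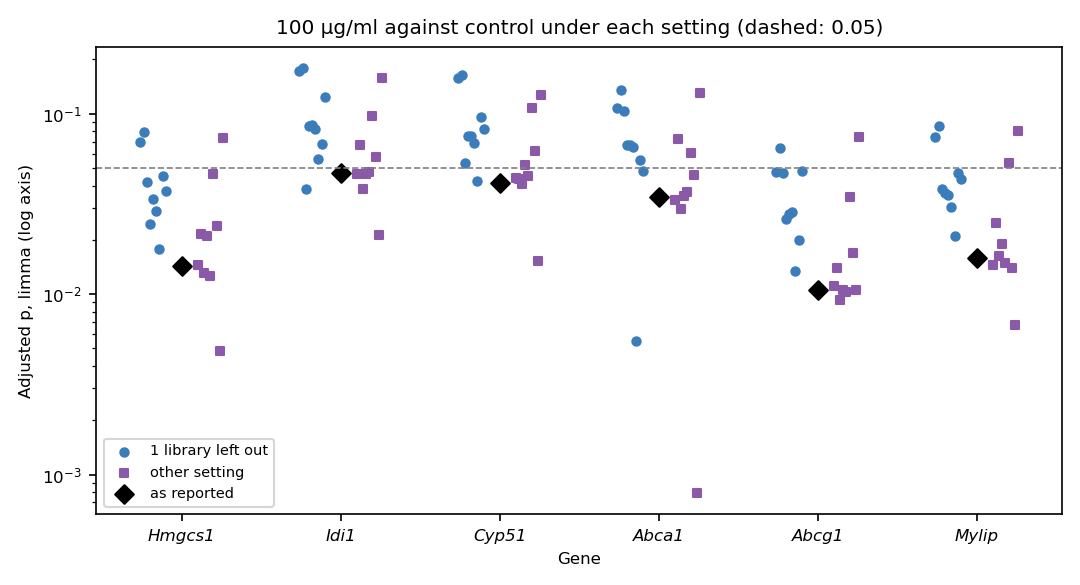
Adjusted p from limma (log axis) for the 6 called genes at 100 µg/ml against control, as reported (diamonds), with each of the 9 libraries left out (circles) and under the other settings (squares); the dashed line is 0.05. Hmgcs1, Abcg1 and Mylip stay under the line in 7, 8 and 7 of the 9 fits with a library left out, and Idi1, Cyp51 and Abca1 in 1, 1 and 2.

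Neighbouring genes of the pathway were taken from 6 lists with 40 genes, of which 33 reached a mean of 1 FPKM. At 100 µg/ml 0 of the 33 were called higher and 1 lower, Lipa, the lysosomal acid lipase that frees cholesterol from its esters. Over all genes 0.708% were called higher and 1.41% lower, so 1 call does not set these lists apart. Lipa measured 130.2, 128 and 134 FPKM in control, 128, 125 and 123 FPKM at 10 µg/ml, and 98.6, 110.2 and 106 FPKM at 100 µg/ml, with the high-dose libraries below all others. The log2 fold change was -0.31 ± 0.05 with a limma adjusted p of 0.0215. It was -0.27 (0.0154) without high-dose replicate 1, and the call was lost without control replicate 1, 2 or 3 or high-dose replicate 3, with an adjusted p of up to 0.0865. The other 8 genes of sterol release and transfer had no call, with Soat2 at -0.28 (0.280) from a level of only 1.56 FPKM in control.

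In the remaining lists 0 genes were called in any comparison, where at most 1.41% of all genes were called in either direction. All 7 genes of acetyl-CoA supply, electron donors and the prenyl branch had values below 0, led by Acss2 at -0.16 (0.663) and Ggps1 at -0.08 (0.460), with a median of -0.04. The list for SREBP processing and INSIG turnover held 7 genes, with a median of -0.03. Farthest from 0 in it were Ubxn1 at 0.14 (0.502) and Erlin2 at -0.10 (0.498). A role of Ubxn1 in INSIG turnover was not established here. Ubxn1 measured 69.4 FPKM in high-dose replicate 1, 49.9 and 53.5 FPKM in the other high-dose libraries, and 50.3 to 52.5 FPKM in control. Of the SREBP-1 fatty acid genes, 5 were tested, with a median of 0.04, and Acaca had -0.23 (0.589) and Elovl6 0.16 (0.243). Acaca measured 28.3 FPKM in high-dose replicate 1, 56.2 and 51.1 FPKM in the other high-dose libraries, and 50.1 to 52.0 FPKM in control. Its negative value therefore rests on that replicate. Scd1 and Fads2 were under 1 FPKM. Of the partners and further targets of LXR, 4 were tested and all 4 were below 0, where 49.4% of all genes were above 0. Arl4c, a small GTPase gene induced by LXR, had -0.24 (0.159) and Rxra, the partner receptor, -0.20 (0.383). Lpcat3, a further target, had -0.08 (0.548) and Rxrb, a further partner, -0.02 (0.942). Of these genes only Arl4c had high-dose libraries all below control. Rxra measured 43.2 FPKM in high-dose replicate 1, 54.6 and 62.5 FPKM in the other high-dose libraries, and 58.1 to 63.1 FPKM in control. Pltp and Smpdl3a were listed at 0 in every library, and Abcg4 was under 1 FPKM. Among the oxysterol-producing enzymes, Ch25h and Cyp7b1 were listed at 0 in every library, and Cyp27a1 had -0.22 (0.146), with 13.1 ± 0.99 FPKM at 100 µg/ml against 15.5 ± 1.09 FPKM in control (SD, n = 3). Adjusted p-values in brackets are from limma.

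All 6 microglia and macrophage markers tested had log2 fold changes below 0 at 100 µg/ml, with a median of -0.20. Of the 6, 0 were called, beside 0.708% of all genes called higher and 1.41% lower. The farthest were Aif1 at -0.65 (limma adjusted p 0.0841) and Csf1r at -0.21 (0.0783). In 3 of the 6, Aif1, Csf1r and Ptprc, every high-dose library lay below every control library, and 11.4% of all genes did so. The summed level of the markers was 880 to 1044 FPKM in control, 892 to 983 FPKM at 10 µg/ml and 849 to 973 FPKM at 100 µg/ml. These ranges overlapped, but Cd68 and Tyrobp weighed most in the sum, at 421 and 266 FPKM on average in control. The part of these differences in the sterol gene values was not tested.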

How the data were processed

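RNA from BV2 cells was measured in 9 libraries, 3 per group, grouped by their titles. Per the study's methods, poly(A) RNA was selected and kits both for stranded total RNA and for RNA were used, and whether the final libraries were stranded is not stated. Low-quality reads were removed, and the remaining reads were aligned with TopHat. The authors obtained the deposited FPKM with Cufflinks 2.1.1 and an Ensembl annotation, correcting for fragment bias and multiply mapped reads. No genome build is named in the sources used here, but 30428 genes of the table have the coordinates of GENCODE M21, which is on GRCm38, so table coordinates were taken as GRCm38. FPKM holds no counts, so no count model was used, and the study's own Cuffdiff test was not rerun.

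FPKM was transformed to log2(FPKM + 1), and limma 3.58.1 (R 4.3.3) was run on the 11161 genes that averaged 1 FPKM or more, with tables prepared in Python 3.11.15, pandas 2.3.3 and numpy 2.4.6. All 3 groups shared one fit with a trend in the prior variance, two-sided, and p-values were adjusted by Benjamini-Hochberg over all genes tested. The code was tested on simulated data. Depth was read from the spacing of low values, of which 71.8% to 78.7% per library came within 0.25 of a whole fragment, so it is approximate.

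The members and lists were chosen with earlier results of these data known. Values in every library are printed for genes past the threshold in any comparison, for the 2 genes of each role with the largest absolute log2 fold change at 100 µg/ml, and for Hmgcs1, Srebf1, Srebf2, Insig1, Nr1h2, Nr1h3, Abca1 and Abcg1. Of the neighbouring lists, genes past the threshold are named, and otherwise the 2 with the largest change. Genes under 1 FPKM, and the remaining tested LXR partners and targets, were named after their values were seen. Alternatives were another pseudocount, other filters, other scalings, no trend, a replicate block, only the libraries compared, each library left out, and a correction for GC content and transcript length that was added after the data were seen. Promoter windows came from RefSeq (GRCm38.p6).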

Additional observations from a re-analysis of the deposited data

How the results depend on the processing

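Of the 6 genes called at 100 µg/ml, all 6 kept their sign under the 18 alternatives run, as did the medians of the enzymes (0.09 to 0.14 with 1 library left out) and of the LXR genes at 100 µg/ml, and 0 of the 32 genes were called at 10 µg/ml under any of them. Medians near 0 changed sign: that of the transport and esterification genes kept it in 13 of 18 alternatives against control at 100 µg/ml and in 15 of 18 between the doses, that of the SREBP regulators in 13 of 18 between the doses and 17 of 18 at 10 µg/ml, and that of the LXR genes in 16 of 18 at 10 µg/ml. The number called at 100 µg/ml against control, 6 as reported, was 2 with a replicate block, Hmgcs1 and Abcg1, 0 with only the 6 libraries compared, and 0 to 5 with 1 library left out. Correction for GC content and transcript length, chosen after the data were seen, gave 8, adding Sqle and Msmo1, quantile normalization gave 6 with Msmo1 in place of Cyp51, and both no filter and no trend gave 4. Between the doses, 4 genes were called as reported, 2 with no filter, 2 with quantile normalization, 0 with the replicate block, 8 with the length and GC correction, 0 with only the 6 libraries compared, and 0 to 3 with 1 library left out.

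Over all genes, the 236 called against control at 100 µg/ml became 106 with the replicate block, 824 with the length and GC correction, 22 with only the 6 libraries compared, and 31 to 539 with 1 library left out, the lowest without control replicate 2 and the highest without high-dose replicate 1. At 10 µg/ml the count of 0 became 4 with no filter, 1 with only the 6 libraries compared, and 0 to 2 with 1 library left out. Between the doses the 95 genes became 13 with the block, 327 with the correction, 6 with only the 6 libraries, and 8 to 191 with 1 left out. With 1 library left out the median of the LXR genes ran from -0.43 to -0.36 at 100 µg/ml and from -0.068 to 0.010 at 10 µg/ml, and between the doses that of the SREBP regulators ran from -0.067 to 0.098 and that of the transport and esterification genes from -0.053 to 0.025. The LXR median between the doses was -0.42 with a pseudocount of 0.1. Fits with fewer libraries have fewer degrees of freedom, and the cause of the other shifts was not tested.

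Whether the replicate numbers of the titles pair the libraries was not settled. Over 9 same-numbered pairs, the deviations from the group means correlated at -0.09 to 0.15, with 1 above 0.1. Between control and the high dose these pairs had 0.152, 0.033 and 0.098, and differently numbered pairs ran from -0.166 to 0.105. Same-numbered pairs with a low-dose library ran from -0.088 to 0.074. Deviations cancel within a group, so these values depend on one another and cannot decide the question. The fit with a replicate block is therefore not set aside. The smallest transcript shares are limited by depth, since Tm7sf2 and Mylip had an estimated 131 and 234 fragments in their lowest libraries.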
